A study of Macaca mulatta with 2 samples.

Results

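A set of 6 genes of the lysosome and of vesicle and organelle traffic were examined in blood cells of the rhesus macaque (Macaca mulatta): IDS, CLN3, DMXL2, COMMD3, VPS13D and TRAK1. They were chosen by gene symbol and make up 6 of the 7904 genes and 20 of the 9267 transcripts in the tables. The tables were made from peripheral blood mononuclear cells (lymphocytes and monocytes), without a named treatment, age or genotype. One RNA sample was made into 2 libraries, titled LongInsert and Regular, and the design asks how far a change of library and sequencer alters the measured transcripts. Read pairs of 300 nt (MiSeq) and 75 nt (GAIIx) are named for the series, but the labels leave unclear which library had which, so each direction below refers to the library title. There was 1 library per title, so no difference could be set against a spread between replicates, no p-value is given, and every comparison is between these libraries and not between conditions.

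Lysosomes degrade macromolecules with acid hydrolases, and a proton pump, the V-ATPase, keeps their lumen acidic. Cargo reaches them through endosomes, from which a sorting machinery returns receptors to the cell surface, while motor proteins move organelles along microtubules and lipid transfer proteins pass lipids between membranes. In white blood cells this system serves phagocytosis, antigen processing and the release of granules. Of the 6 genes, IDS and CLN3 encode proteins of the lysosome itself. DMXL2 encodes a regulator of the V-ATPase, and COMMD3 a subunit of an endosomal recycling complex. VPS13D and TRAK1 act on lipid transfer and organelle transport, largely at mitochondria, so the 6 genes are a mixed group and not a single pathway.

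Abundance is given in TPM, the abundance per 1000000 transcripts, a unit scaled for transcript length that permits levels of different genes to be set side by side. Gene values are sums over the listed transcripts, and the log2 ratio is log2((LongInsert + 1)/(Regular + 1)), where the added 1 TPM understates differences of low genes. The listed transcripts summed to 130234 TPM in LongInsert against 152883 TPM in Regular, and the remainder up to 1000000 TPM was not analysed here. The 10 most abundant genes held 28.7% of the listed total in LongInsert and 51.5% in Regular. TPM does not record read number, so depth is unknown and a low value cannot be told from too few reads. Of 39 marker genes of blood cell types, 4 could be matched by symbol, none of them of T, B or NK cells, so the lymphocytes of the labelled cell type could not be checked. The pan-leukocyte gene LSP1 had 396 TPM in LongInsert against 719 TPM in Regular, and the monocyte gene FCGR1A had 6.69 and 8.47 TPM. The platelet gene ITGB3 had 3.29 and 1.77 TPM, and the red cell gene HBA1 had 0.0093 and 0.0035 TPM.

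Of the 6 genes, 5 were at least 2-fold higher in LongInsert, and CLN3 was the exception. Among the 1310 genes with a mean TPM of at least 1, 666 (50.8%) exceeded 2-fold in favour of LongInsert and 260 (19.8%) in favour of Regular. Among the 365 of these that have a symbol, as all 6 genes do, the shares were 53.7% and 9.59%. The median log2 ratio was 2.30 over the 6 genes, 1.04 over the 1310 genes and 1.12 over the 365. Most of the 1310 genes thus leaned the same way as 5 of the 6 members. Centring subtracts 0.59, the median log2 ratio of the 625 genes at 10 TPM and above. With it, 4 of the 6 members remained at least 2-fold higher and IDS and CLN3 lay within 2-fold. The shares of all genes were then 38.5% higher and 25.5% lower.

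**Figure D1:**
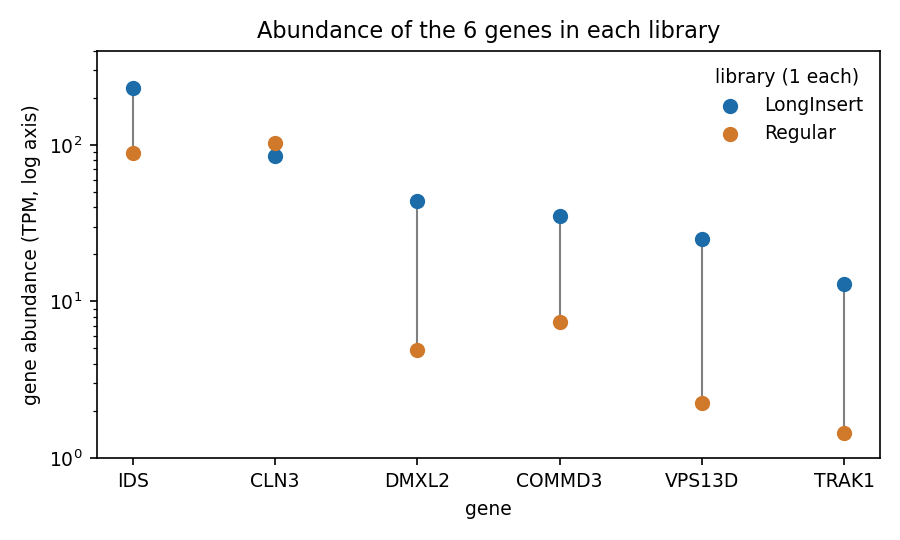
Gene abundance (TPM, logarithmic axis) of the 6 genes in the LongInsert library (blue) and the Regular library (orange), 1 library each, with a line joining both values of a gene. CLN3 is the gene whose points nearly meet (85.0 and 103 TPM), and the gap is widest for VPS13D (25.2 and 2.24 TPM).

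IDS (ENSMMUG00000000671) encodes iduronate 2-sulfatase, the lysosomal enzyme that removes sulfate from heparan and dermatan sulfate and that is deficient in Hunter syndrome. Its gene total was 231 TPM in LongInsert against 88.3 TPM in Regular, with log2 ratios of 1.38 as deposited and 0.79 once centred. Among the 7904 genes it ranked 85th by TPM in LongInsert and 150th in Regular. The difference of 143 TPM lay in a single transcript. ENSMMUT00000000964 had 206 TPM in LongInsert against 59.2 TPM in Regular. The next transcript, ENSMMUT00000000965, was nearly level, at 25.6 and 29.1 TPM. ENSMMUT00000000966 was close to 0 in both, at 0.0132 and 0.0297 TPM. The leading transcript was therefore the same in both libraries, with 88.9% of the gene in LongInsert and 67.0% in Regular. A partial copy of IDS is known beside the gene in humans, and whether reads were shared with such a copy in the macaque was not tested.

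CLN3 (ENSMMUG00000000700) encodes a lysosomal membrane protein whose loss causes juvenile Batten disease, a neuronal storage disorder. Its total was close in both libraries, with 85.0 TPM in LongInsert against 103 TPM in Regular, a log2 ratio of -0.28. That near-equal total was made of opposite differences among its 8 listed transcripts, the most of any of the 6 genes. ENSMMUT00000001007 had 65.2 TPM in LongInsert against 29.5 TPM in Regular. ENSMMUT00000001015 went the other way, from 2.45 TPM in LongInsert to 43.4 TPM in Regular, a 17.7-fold difference in raw TPM. ENSMMUT00000001008 was also the lower in LongInsert, at 5.81 and 20.6 TPM.

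The remaining CLN3 transcripts differed less in TPM. ENSMMUT00000001012 had 5.21 and 7.21 TPM in LongInsert and Regular, and ENSMMUT00000001013 had 5.65 and 2.76 TPM. The other 3 (ENSMMUT00000001010, ENSMMUT00000001016 and ENSMMUT00000001017) stayed below 0.37 TPM in both. As shares of the gene, ENSMMUT00000001007 took 76.7% in LongInsert and 28.5% in Regular, where ENSMMUT00000001015 led with 41.9% against 2.88% in LongInsert. The abundance was spread over more transcripts in Regular. The effective number of transcripts (2 raised to the Shannon entropy of the shares in bits, equal to 1 when a single transcript holds everything) was 2.42 in LongInsert and 3.79 in Regular. In the RefSeq gene table for assembly T2T-MMU8v2.0, which may not be the build used by the authors, the CLN3 locus overlaps APOBR, IL27 and NUPR1. Whether reads of those genes entered the CLN3 values was not tested, and the strand setting of the counting is not given in the sources used here.

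DMXL2 (ENSMMUG00000000754) encodes rabconnectin-3 alpha, a large WD-repeat protein that takes part in assembling the V-ATPase on synaptic vesicles and endosomes. It had 43.9 TPM in LongInsert against 4.92 TPM in Regular, an 8.91-fold difference and a log2 ratio of 2.92. Both listed transcripts were lower in Regular. ENSMMUT00000001084 had 23.2 and 1.64 TPM, and ENSMMUT00000001086 had 20.7 and 3.29 TPM. The pair was near balance in LongInsert, at 52.8% and 47.2% of the gene, and leaned to ENSMMUT00000001086 in Regular, at 33.2% and 66.8%. The leading transcript thus differed between the libraries, although each transcript held at least 33.2% of the gene in either. The shares in Regular rest on a gene total of 4.92 TPM.

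COMMD3 (ENSMMUG00000000881) encodes a COMM domain protein of the Commander assembly, which returns receptors and other cargo from endosomes to the plasma membrane. Its total was 35.0 TPM in LongInsert against 7.35 TPM in Regular, a 4.77-fold difference and a log2 ratio of 2.11. A single transcript, ENSMMUT00000001257, held nearly all of it, with 34.4 TPM (98.3% of the gene) in LongInsert and 7.32 TPM (99.7%) in Regular. ENSMMUT00000001259 had 0.534 and 0.0102 TPM, and ENSMMUT00000043148 had 0.0460 and 0.0144 TPM. The gene level therefore differed without a change of transcript. In the RefSeq table the next coding gene along is BMI1, with which COMMD3 is known to form read-through transcripts in humans.

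VPS13D (ENSMMUG00000021449) encodes a very large bridge-like protein that carries lipids between the endoplasmic reticulum and mitochondria or peroxisomes and is needed for normal mitochondrial shape. It had 25.2 TPM in LongInsert against 2.24 TPM in Regular, an 11.2-fold difference and a log2 ratio of 3.01. This was the highest of the 6 genes as deposited, whereas with 5 TPM added in place of 1 the log2 ratio was 2.06 for VPS13D and 2.30 for DMXL2. ENSMMUT00000030197 held 98.8% of the gene in LongInsert (24.9 TPM) and 99.7% in Regular (2.24 TPM). ENSMMUT00000030193 had 0.312 and 0.00619 TPM. Like COMMD3, VPS13D differed in level and kept its transcript.

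TRAK1 (ENSMMUG00000001075) encodes an adaptor that links kinesin and dynein motors to mitochondria and has also been tied to endosomal sorting. It was the least abundant of the 6 genes in both libraries, with 12.8 TPM in LongInsert against 1.45 TPM in Regular, an 8.87-fold difference and a log2 ratio of 2.50. Its transcripts changed places. ENSMMUT00000001528 had 12.6 TPM in LongInsert against 0.0127 TPM in Regular, and so took 98.2% of the gene in one library and 0.879% in the other. ENSMMUT00000001527 had 0.234 TPM in LongInsert against 1.43 TPM in Regular, where it took 99.1%. The share in Regular rests on a gene total of under 2 TPM.

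**Figure D2:**
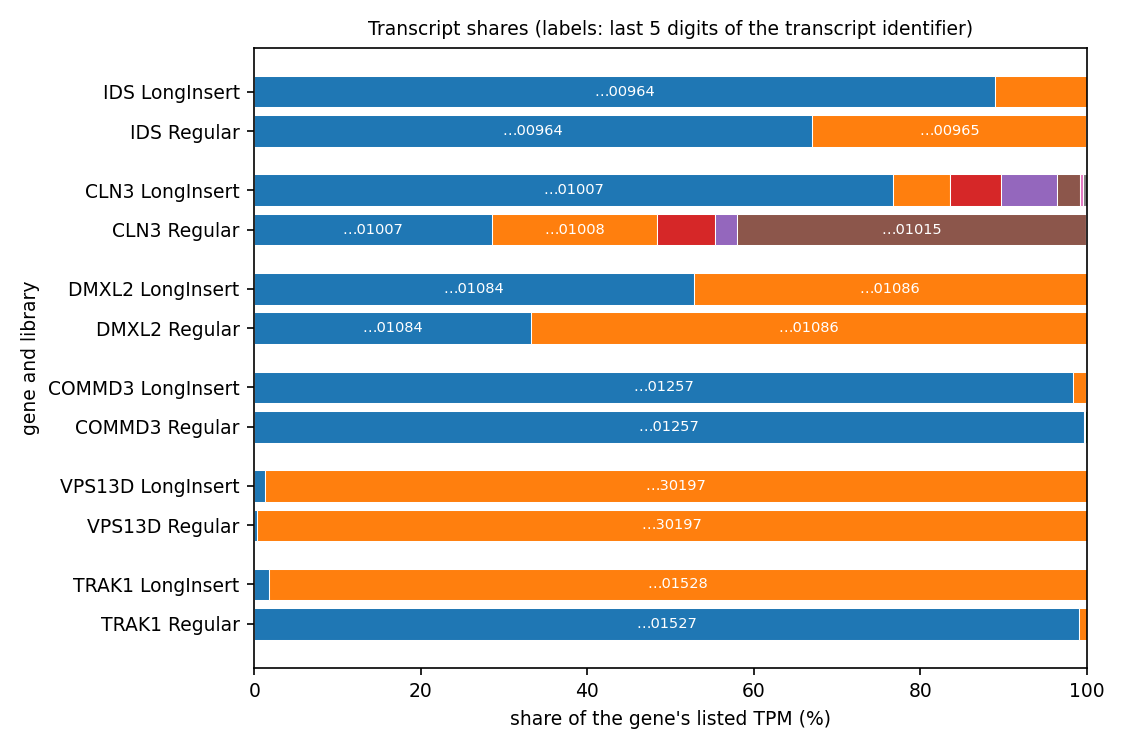
Share of each gene's listed TPM (percent, horizontal axis) taken by each of its transcripts, with 1 bar per gene and library and colours marking transcripts in identifier order within a gene. COMMD3 and VPS13D keep a single transcript above 98% in both bars, IDS shifts by 21.9 points under the same leading transcript, and CLN3, DMXL2 and TRAK1 have a different leading transcript in each library.

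By level, the 6 genes ran from IDS through CLN3, DMXL2, COMMD3 and VPS13D to TRAK1 in LongInsert. In Regular, CLN3 stood above IDS and COMMD3 above DMXL2, and VPS13D and TRAK1 were again the lowest. With 1 library per title, neighbours in that order could not be compared with a replicate spread. The sum over the 6 genes was 433 TPM in LongInsert against 208 TPM in Regular.

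Between 1 and 1000 TPM the median log2 ratio was higher in the classes of lower abundance, so each member was set among all genes of its own abundance class. In the class with means between 1 and 10 TPM, which holds TRAK1, the median log2 ratio of 685 genes was 1.45, and 114 of them had a higher ratio than TRAK1. From 10 to 100 TPM, 472 genes had a median of 0.90. In that class 82 genes had a higher ratio than VPS13D, 90 than DMXL2, 132 than COMMD3 and 329 than CLN3. From 100 to 1000 TPM, 125 genes had a median of 0.07, and 31 had a higher ratio than IDS. Thus 5 of the 6 genes lay in the upper part of their class but not at its end, and CLN3 lay in the lower part. The classes were cut on the mean of both libraries. In Regular, DMXL2 (4.92 TPM), COMMD3 (7.35 TPM) and VPS13D (2.24 TPM) were under 10 TPM, and IDS (88.3 TPM) was under 100 TPM. These genes reached their class only through LongInsert, so a high ratio within the class follows in part from the cut.

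**Figure D3:**
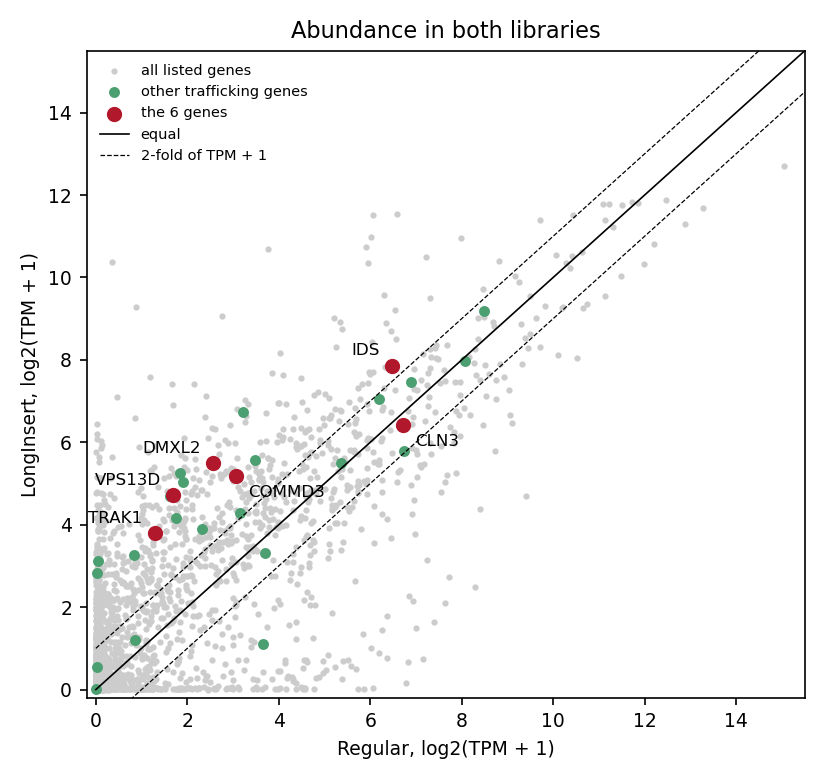
Abundance of every listed gene in Regular (horizontal) and LongInsert (vertical), both as log2(TPM + 1), with the 6 genes in red, the other trafficking genes in green, the line of equality and 2-fold lines (dashed). CLN3 lies just under the line of equality (log2 ratio of -0.28), and the other 5 red points lie above the upper 2-fold line among many grey points that do the same (666 of 1310 genes with a mean TPM of at least 1).

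Transcripts were also compared singly. Of the 20 transcripts, 12 had a mean TPM of at least 1, of which 7 exceeded 2-fold in favour of LongInsert, 2 in favour of Regular and 3 did neither. Over 1500 transcripts at that minimum, 51.8% were higher and 20.5% lower, so the split of the member transcripts was near that of all transcripts. Both of the lower member transcripts, ENSMMUT00000001015 and ENSMMUT00000001008, belong to CLN3. The 3 within 2-fold on the log2 ratio were ENSMMUT00000000965 of IDS and ENSMMUT00000001012 and ENSMMUT00000001013 of CLN3. In raw TPM, ENSMMUT00000001013 was 2.04-fold higher in LongInsert.

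Transcript shares and ratios within a gene do not depend on how a library is scaled. The ratio of the most abundant pair of transcripts was 8.04 in LongInsert and 2.03 in Regular for IDS, and 1.12 and 0.498 for DMXL2. For CLN3 the ratio of ENSMMUT00000001007 to ENSMMUT00000001015 was 26.6 in LongInsert and 0.681 in Regular. For TRAK1 the ratio of ENSMMUT00000001528 to ENSMMUT00000001527 was 53.8 and 0.00887. The first transcript of each pair was the one of higher mean over both libraries. In CLN3, DMXL2 and TRAK1 it led in LongInsert and not in Regular, so a higher ratio in LongInsert follows from that order. In IDS, whose first transcript led in both libraries, the ratio was also higher in LongInsert. In COMMD3 it was 64.4 in LongInsert and 720 in Regular, and in VPS13D 79.7 and 361, with the second transcript of both genes under 1 TPM in either library.

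The share placed on other transcripts, which is the sum of all gains in share between the libraries, varied widely among the 6 genes. It was 0.964 percentage points for VPS13D and 1.39 for COMMD3, 19.6 for DMXL2 and 21.9 for IDS, 52.9 for CLN3 and 97.3 for TRAK1. Over the 194 genes that averaged at least 5 TPM and had more than 1 listed transcript, the median was 14.6 points, with quartiles at 1.98 and 33.6. Of these 194 genes, 17 had a larger value than CLN3 and 2 a larger value than TRAK1. DMXL2 (4.92 TPM), VPS13D (2.24 TPM) and TRAK1 (1.45 TPM) were under 5 TPM in Regular. They passed the minimum mean only through LongInsert, and their shares and leading transcripts in Regular rest on those low totals. The leading transcript differed between libraries in 3 of the 6 members (CLN3, DMXL2 and TRAK1) and in 54 of the 194 genes (27.8%). Among the 105 genes with 2 listed transcripts, as DMXL2, VPS13D and TRAK1 have, the median share moved was 5.19 points and the leader differed in 18. Among the 89 with more, as IDS, CLN3 and COMMD3 have, it was 22.4 points and the leader differed in 36.

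**Figure D4:**
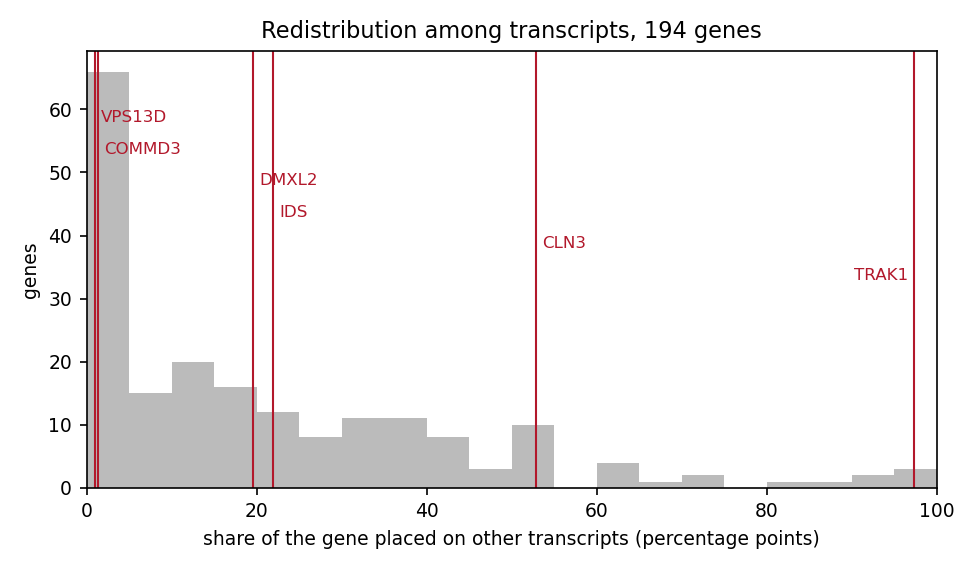
Number of genes (vertical axis) by the share of their abundance placed on other transcripts in one library than in the other (percentage points, horizontal axis, bins of 5 points), for the 194 genes of more than 1 transcript that averaged at least 5 TPM, with red lines at the 6 genes. VPS13D and COMMD3 fall in the lowest bin, DMXL2 and IDS near 20 points, CLN3 at 52.9 and TRAK1 at 97.3.

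Other genes of lysosomes and vesicle traffic were taken from 6 lists with 760 symbols, of which 22 outside the members were matched and 20 had a mean TPM of at least 1. The remaining KIF5A and TBC1D7, outside the rule for named genes, were under 1 TPM in both libraries. Of the 20, 11 were at least 2-fold higher in LongInsert, 1 was at least 2-fold lower and 8 lay within 2-fold, with a median log2 ratio of 1.37. For comparison, the shares over all genes are the 50.8% and 19.8% given above, with a median of 1.04. After centring, 9 of the 20 were higher and 2 lower, beside 38.5% and 25.5% of all genes. In all of 4 scalings of the libraries, 9 of these 20 genes were at least 2-fold higher in LongInsert and TBC1D24 at least 2-fold lower. The share of all genes that did so in every scaling was not computed, so these counts have no background beside them. For 4 genes (MYO1F, RAB7A, CCZ1 and AP3S2) the direction depended on the scaling.

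From the list of lysosomal membrane, proton pump and nutrient sensing genes, 2 matches are reported beside CLN3 and DMXL2. Both were under 1 TPM in Regular and reached the minimum mean only through LongInsert, so their being higher there follows in part from the minimum. BORCS7, of the BORC complex that positions lysosomes, had 8.69 TPM in LongInsert against 0.772 TPM in Regular. FNIP2, a partner of folliculin in nutrient sensing at the lysosome, had 6.16 and 0.0244 TPM. The only endosomal sorting match beside COMMD3 was ZFYVE9, an endosomal FYVE domain protein, at 14.0 and 3.97 TPM, just within 2-fold after centring.

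All 5 matches of the list of tethers, lipid transfer and fusion genes beside VPS13D were at least 2-fold higher in LongInsert. Their median log2 ratio was 3.08, and 4 stayed at least 2-fold higher after centring. Over all genes, 50.8% were higher, and 38.5% after centring, with an uncentred median of 1.04. All 5 had 7.88 TPM or less in Regular. Over all genes, the classes of 1 to 10 and 10 to 100 TPM had medians of 1.45 and 0.90. BLTP1, a bridge-like lipid transfer protein of the same superfamily as VPS13D, had 37.4 TPM in LongInsert against 2.57 TPM in Regular. The Golgi SNARE gene GOSR2 had 32.1 and 2.75 TPM. PLEKHM1, an adaptor for fusion of late endosomes and autophagosomes with lysosomes, had 16.9 and 2.38 TPM. The tether subunit genes TRAPPC2 and VPS53 had 7.72 and 0.0345 TPM, and 18.6 and 7.88 TPM. TRAPPC2 reached the minimum mean only through LongInsert. VPS53 was the gene that lay within 2-fold after centring.

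The list of motors, adaptors and Rab or Arf regulators, which holds TRAK1, was split. Of the 9 other genes analysed from it at 1 TPM or more, 3 were higher in LongInsert, 1 was lower and 5 lay within 2-fold. The kinesin light chain gene KLC1 had 106 TPM in LongInsert against 8.33 TPM in Regular, the Rab regulator gene DENND4C 25.1 and 2.10 TPM, and the RAB5 regulator gene RIN3 46.2 and 10.1 TPM. The lower gene was TBC1D24, encoding a TBC domain protein of vesicle traffic, at 1.17 and 11.7 TPM. RAB7A, the GTPase of late endosomes and lysosomes, was close in both, at 249 and 270 TPM. RAB1A (131 and 71.9 TPM), MYO1F (176 and 118 TPM), CCZ1 (43.9 and 39.8 TPM) and RAB4B (53.8 and 106 TPM) also lay within 2-fold on the log2 ratio, and RAB4B was lower by 2-fold or more after centring.

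All 3 matches among coats, adaptors and cargo receptors lay within 2-fold. The membrane-curving protein gene BIN2 had 580 TPM in LongInsert against 355 TPM in Regular, the endocytic scaffold gene ITSN1 had 8.89 and 12.1 TPM, and AP3S2, of the AP-3 adaptor, had 1.30 and 0.801 TPM. Near-identical copies of TRAPPC2 and CCZ1 are known in humans, and values of such genes are uncertain where reads could be split between copies.

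**Figure D5:**
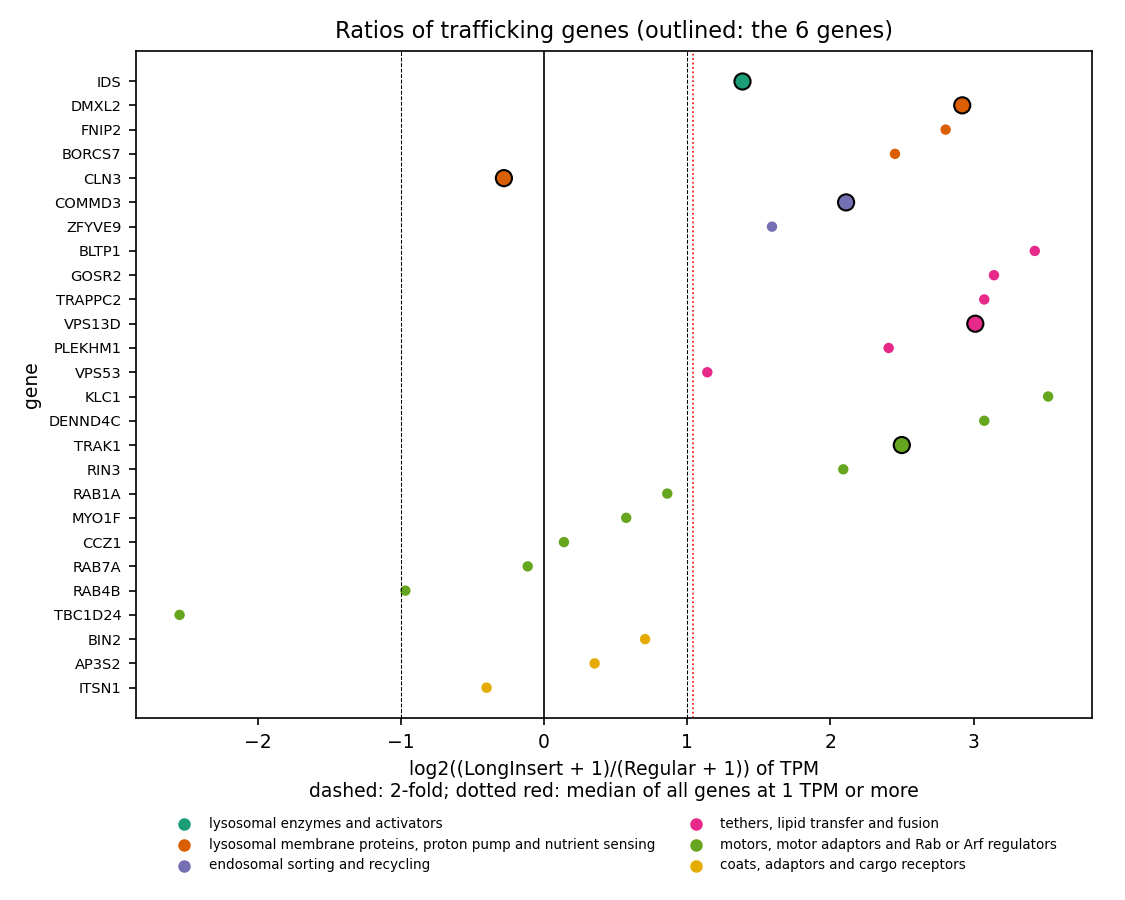
Log2 ratio of TPM + 1 (LongInsert over Regular, horizontal axis) of the trafficking genes reported here with a mean TPM of at least 1, grouped and coloured by list, with the 6 genes outlined, 2-fold lines dashed and the median of all 1310 genes (1.04) as a dotted line. Tether and lipid transfer genes all lie to the right of 1, motor and Rab genes run from -2.55 (TBC1D24) to 3.52 (KLC1), and coat genes lie between -1 and 1.

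Of the other trafficking genes, 8 had 2 or more listed transcripts and a mean TPM of at least 5. Of these, 6 kept their leading transcript, near the share of all genes at that minimum (140 of 194). The share moved ran from 6.84 points in VPS53 to 61.6 points in KLC1, with a median of 26.9 against 14.6 over the 194 genes. DENND4C (2.10 TPM) and GOSR2 (2.75 TPM) were under 5 TPM in Regular, and TBC1D24 (1.17 TPM) was in LongInsert. They passed the minimum mean only through the other library, so their shares moved and leading transcripts rest on those low totals. RAB7A resembled CLN3 in having near-equal totals over unequal transcripts. Its ENSMMUT00000045930 had 0.0852 TPM in LongInsert against 59.2 TPM in Regular, whereas ENSMMUT00000002528 had 249 and 211 TPM. In GOSR2, as in DMXL2, the pair of transcripts was more even in LongInsert than in Regular. In GOSR2, ENSMMUT00000026276 took 54.8% of the gene in LongInsert and 98.8% in Regular. The leading transcript of DMXL2 took 66.8% in Regular, so the likeness is one of direction only. These shares in Regular rest on gene totals of 2.75 TPM for GOSR2 and 4.92 TPM for DMXL2.

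The genes with the most similar pair of values were found by the distance between log2(TPM + 1) values over both libraries, among genes with a symbol. Nearest to VPS13D was DENND4C, at a distance of 0.07, followed by ELL2 and ARHGEF18. Nearest to IDS was KIAA0040, with 228 TPM in LongInsert against 82.8 TPM in Regular, followed by PNRC2 and TARDBP. CLN3 had ANAPC5 (96.4 and 121 TPM), MFF and SPATA13 as neighbours, and DMXL2 had PRELID3B (38.2 and 4.35 TPM), MDN1 and BRD10. COMMD3 had HPS5 (38.2 and 6.32 TPM), GSAP and BRD10, and TRAK1 had TMEM256 (10.4 and 1.38 TPM), PIK3C2B and TTLL5. A likeness over 2 libraries of a single RNA sample places genes at a similar level and ratio only.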

How the data were processed

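Total RNA of rhesus macaque peripheral blood mononuclear cells was measured in 2 libraries of 1 RNA sample. Per the labels' protocols, one run used a standard Illumina library and the MiSeq run used cDNA made with a kit given as SMRT, a Nextera reaction and gel size selection. Both libraries carry the same protocol text. The authors deposited 1 table of TPM per transcript for each library, per the file headers. Tools listed in the submitters' processing notes are STAR, Trimmomatic and CASAVA 1.8.2, with no role stated. Isolator, an estimator of isoform abundance, appears in the title of the series. The genome build, annotation and settings were not given in the sources used here.

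Groups came from the titles. Transcripts were summed per gene, and symbols were matched by Ensembl identifier, for 724 of 7904 genes (Python 3.11.15, pandas 2.3.3). All 6 members matched. Ratios used a pseudocount of 1 TPM, counts a minimum mean of 1 TPM and a difference of 2-fold or more, and transcript usage a mean of 5 TPM with at least 2 transcripts listed. No test was possible with 1 library per group. Counting and usage scripts were tested on simulated data. Named were all members, the 3 nearest genes of each and every listed trafficking gene with a mean TPM of at least 1, except for a few genes that are not reported here and were left out of the list counts. The members and lists were chosen with earlier results of these data known. No sequence or protein table was used here, so the planned comparison with protein length was not run. Alternatives were other pseudocounts, minimums, scalings and leading transcripts.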

Additional observations from a re-analysis of the deposited data

How the results depend on the processing

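No paired analysis was possible because each title has 1 library, and for the same reason none could be left out. The 5 genes other than CLN3 stayed higher in LongInsert and CLN3 stayed lower under all pseudocounts and scalings tried. Log2 ratios ran from 0.79 to 1.61 for IDS, -0.88 to -0.05 for CLN3, 2.30 to 3.13 for DMXL2, 1.52 to 2.32 for COMMD3, 2.06 to 3.43 for VPS13D and 1.47 to 3.06 for TRAK1. IDS fell below 2-fold after centring (0.79), because 0.59 is subtracted from every ratio. The median of genes at 10 TPM or more was 0.90 with both listed totals made equal and 0.24 when this was done without the 10 most abundant genes. These scalings gave 738 genes higher and 230 lower, and 604 and 297, in place of 666 and 260, and centring gave 505 and 334. Of the other trafficking genes, 2 were lower after centring and 2 with the rescaling that leaves out the top genes. A minimum mean of 10 TPM, which tests 13 of them, left 6 higher and 0 lower. Of the 6, all but RIN3 (10.1 TPM) were under 10 TPM in Regular and passed that minimum only through LongInsert. Their being higher there follows in part from the minimum. That minimum left 266 genes higher and 143 lower of 625, and a pseudocount of 5 TPM left 420 genes higher. Following the transcript that leads in Regular turned the sign of the usage difference, to -39.0 points for CLN3, -19.6 for DMXL2 and -97.3 for TRAK1. The turn is fixed by construction in DMXL2 and TRAK1, with 2 listed transcripts each, but not in CLN3, with 8. Depth is unknown, which limits every value below a few TPM.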

Other observations

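The 8 member transcripts with a mean under 1 TPM, not used in the counts, were mostly higher in LongInsert. This was so for 6 of the 8, in CLN3, COMMD3 and VPS13D, and the exceptions were ENSMMUT00000000966 of IDS and ENSMMUT00000001527 of TRAK1. Over all 7767 listed transcripts under that mean, 38.8% were higher in LongInsert and the others in Regular. Values this low cannot be told from too few reads, and the pattern was chosen after the values were seen.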
